A study of Phaffia rhodozyma with 29 samples.

Results

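Among 6469 genes counted by RNA-seq in the red yeast Xanthophyllomyces dendrorhous (also called Phaffia rhodozyma), 10 met a rule for genes changed in the strain that carries both an SRE1 deletion and an interrupted CYP61 locus. They differed from wild type (N) in that strain, lay close to wild type (N) in cyp61- and were not far below wild type (Ne) in sre1-. Expression was taken as the mean over 3 libraries of log2(CPM + 1), where CPM is a gene's count scaled to counts-per-million of its library. The genes were selected on these measured values: a gene was chosen where the double mutant (cyp61- sre1-) differed from wild type (N) by at least 1, cyp61- differed from wild type (N) by less than 0.5, and sre1- minus wild type (Ne) was above -0.5. The 10 genes were 3 higher genes (g4170 on contig 9, g5002 on contig 2 and g5770 on contig 6) and 7 lower genes (g818 and g854 on contig 3, g2682 and g2683 on contig 7, g4669 and g4825 on contig 4, and g5580 on contig 2). With library sizes scaled by TMM, the same rule gave 5 higher and 4 lower genes, of which 3 and 4 were among these 10. With wild type (Ne) as the wild type of every strain, only g5002, g818 and g5580 of the 10 were chosen.

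The 18 libraries formed 6 groups of 3, described as biological replicates of strains grown under standard conditions to late exponential phase, and every strain had CBS 6938 as its parent. They were the double mutant, cyp61- (interrupted CYP61), a strain with FLAG-tagged Sre1, wild type (N), sre1- (SRE1 deleted) and wild type (Ne). Wild type (N) and wild type (Ne) are set apart in the labels by a suffix alone, and the labels do not say which of them is the control of which mutant. Of the 2 tagged strains in the series, one has the cyp61- background, and the sources do not say which of them the RNA came from, nor how many clones stand behind a strain. Per the file headers, the tables of the double mutant, cyp61-, the tagged strain and wild type (N) came from paired, trimmed reads. The headers of sre1- and wild type (Ne) say neither, so values that cross these sets of tables carry that difference in description as well. Per library, the counts summed to between 9300589 and 20663214 (libraries A and C of the tagged strain), and all 10 genes passed the filter on low counts. The letters A, B and C below are those of the library labels.

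Sre1 belongs to the sterol regulatory element-binding proteins, transcription factors that are held in a membrane and released by proteolysis when sterols run low. They then enter the nucleus and activate genes of sterol synthesis and, in several fungi, of adaptation to low oxygen. CYP61 encodes the cytochrome P450 that introduces the C-22 double bond late in ergosterol synthesis, so a strain without it makes other sterols in place of ergosterol. X. dendrorhous makes the carotenoid astaxanthin from the same mevalonate-derived precursors that feed sterol synthesis. The files pair identifiers with no gene name, product or sequence, so no role can be given to the 10 genes, and SRE1 and CYP61 themselves could not be looked up in their mutants.

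The difference from wild type (N) selected few genes, and the other criteria kept few of those. A distance of at least 1 from wild type (N) in the double mutant was found at 77 of 6469 genes (1.19%), 16 of them higher and 61 lower. Of the 77, 11 lay within 0.5 of wild type (N) in cyp61-, a criterion that 4207 of all genes (65.0%) met, and 10 also passed the criterion on sre1-, which 6381 of all genes (98.6%) met. The gene nearest inside the threshold on the double mutant was g5002, at 1.03, and the nearest outside that met the other criteria was g1678, at -0.98. On the cyp61- threshold, g4669 lay inside at -0.41 and g3598 outside at 0.52. On the sre1- threshold, g4825 lay inside at -0.36, and g5794 lay outside with sre1- minus wild type (Ne) at -1.05 and the double mutant minus wild type (N) at -2.17.

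**Figure D1:**
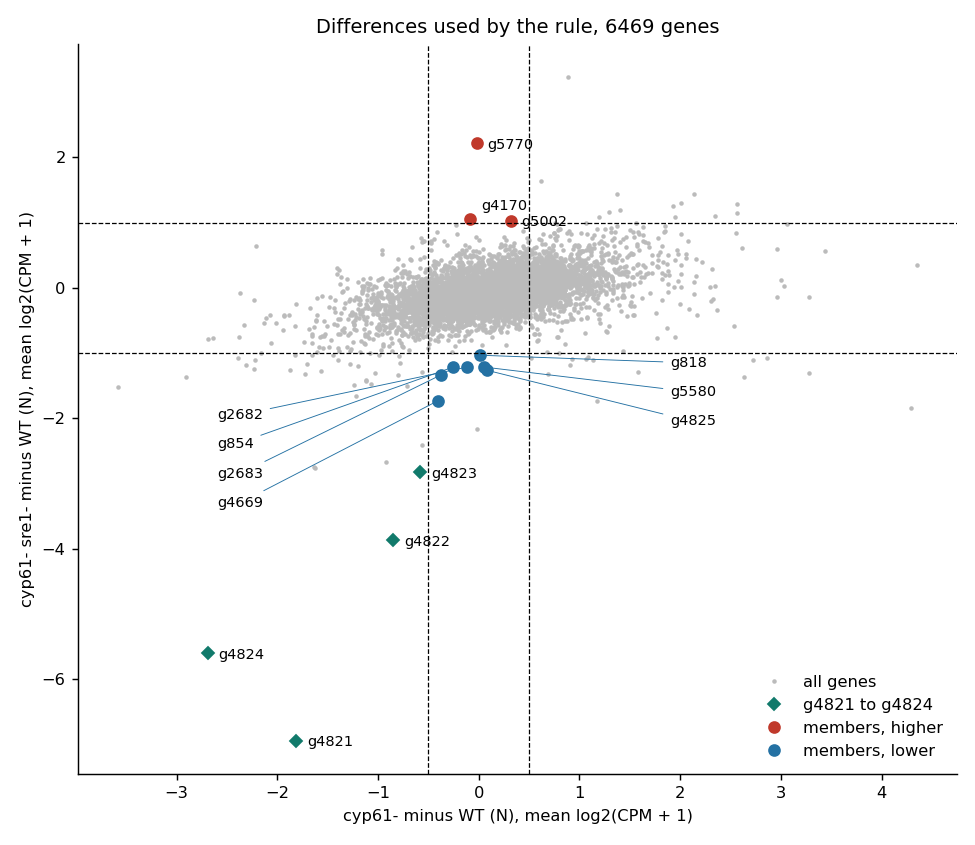
Each point is a gene, with cyp61- minus wild type (N) on the x axis and the double mutant minus wild type (N) on the y axis, both as differences of mean log2(CPM + 1) over 3 libraries. Dashed lines mark the thresholds of the rule at 0.5 and 1; the 3 higher genes (red) and 7 lower genes (blue) lie between the vertical lines, and g4821 to g4824 (green diamonds), which are not among the 10, lie left of them at lower values.

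The higher genes had their highest levels, within the set of tables from trimmed reads, in the double mutant and their lowest in the tagged strain. The rule favoured the highest place of the double mutant, and the share of all genes with that order was not counted. For g4170, the double mutant had 108, 115 and 80.1 CPM, cyp61- 40.5, 59.2 and 37.1 CPM, and the tagged strain 16.6, 17.9 and 19.1 CPM, against 47.0, 50.2 and 45.0 CPM in wild type (N). All 3 double mutant libraries lay above, and all 3 tagged libraries below, every cyp61- and wild type (N) library, while cyp61- and wild type (N) overlapped. In the other tables g4170 had 52.1, 57.4 and 46.6 CPM in sre1-, against 52.2, 81.0 and 52.4 CPM in wild type (Ne), where library B stood above the rest and overlapped the lowest double mutant library.

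For g5002, the double mutant had 108, 102 and 80.0 CPM, cyp61- 48.6, 60.6 and 66.7 CPM, and the tagged strain 26.9, 29.6 and 22.6 CPM, against 35.9, 57.9 and 48.1 CPM in wild type (N). The double mutant libraries were again above and the tagged libraries below all those of cyp61- and wild type (N), which overlapped. Counts of g5002 came to 51.8, 49.6 and 28.3 CPM in sre1-, against 50.9, 45.7 and 35.3 CPM in wild type (Ne), all below the lowest double mutant library.

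The third higher gene, g5770, stood at 33.0, 28.4 and 26.4 CPM with both mutations, 5.53, 4.84 and 5.92 CPM in cyp61-, and 2.26, 2.51 and 2.03 CPM in the tagged strain, against 5.35, 6.17 and 5.02 CPM in wild type (N). Its double mutant libraries had the widest gap from wild type (N) of the 3 higher genes, a difference of 2.21 in log2(CPM + 1). Levels in the other tables were 51.1, 42.4 and 34.9 CPM in sre1-, against 25.0, 26.9 and 36.1 CPM in wild type (Ne). The wild type (Ne) libraries therefore overlapped the double mutant and lay above every wild type (N) library, by 2.21 on the same scale, and the mean was 29.3 ± 3.37 CPM for the double mutant beside 29.3 ± 5.95 CPM for wild type (Ne) (SD, n = 3 each). Against wild type (Ne), the difference of the double mutant at g5770 was 0.01.

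**Figure D2:**
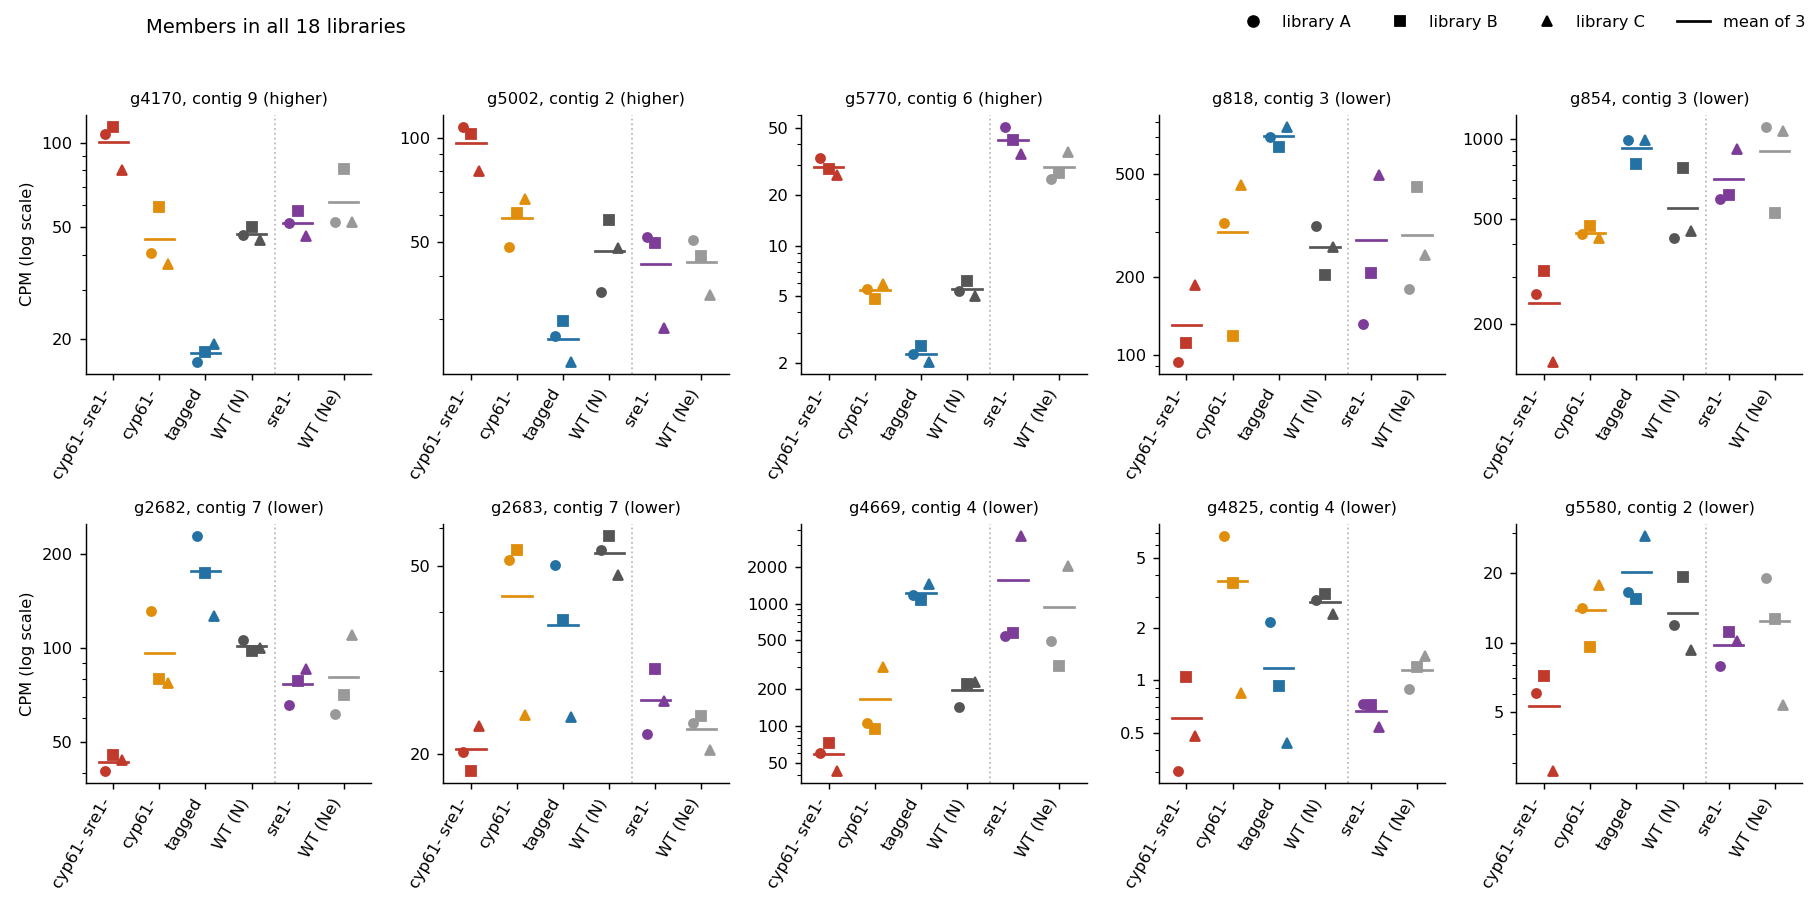
CPM of the 10 genes in all 18 libraries on a log axis, 1 panel per gene, with marker shape for the library letter and a bar for the mean of 3; a dotted line parts the tables described as paired and trimmed (left) from sre1- and wild type (Ne) (right). The double mutant is the highest of the 4 groups on the left for g4170, g5002 and g5770, and g5770 in wild type (Ne) is at the level of the double mutant.

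Within the same set of tables, all 7 lower genes had their lowest mean in the double mutant, which the rule favoured. Of these, 5 (g818, g854, g2682, g4669 and g5580) had their highest mean in the tagged strain. The share of all genes with that order was not counted. At g4669, the double mutant had 60.1, 72.5 and 42.5 CPM, cyp61- 106, 94.8 and 301 CPM, and the tagged strain 1166, 1061 and 1451 CPM, against 142, 219.7 and 226 CPM in wild type (N). The tagged libraries lay above and the double mutant libraries below all others of that set. In the other tables, g4669 had 547, 572 and 3561 CPM in sre1-, against 495, 311 and 2030.3 CPM in wild type (Ne), so that library C stood far above A and B in both strains. The SD of its log2(CPM + 1) was 1.54 in sre1- and 1.41 in wild type (Ne), beside a median over all tested genes of 0.24 and 0.27.

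Libraries of g818 were uneven as well. The double mutant had 93.7, 111 and 186 CPM, cyp61- 323, 118 and 453 CPM, and the tagged strain 700.4, 639 and 765 CPM, against 316, 204 and 260.4 CPM in wild type (N). Library B of cyp61- fell within the range of the double mutant, and the tagged libraries were above every other library of the 18. For g818, sre1- had 131, 207 and 498 CPM, against 179.7, 446 and 244 CPM in wild type (Ne), which overlap each other, wild type (N) and, with library A of each, the double mutant.

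For g854, the double mutant had 259, 316 and 143 CPM, cyp61- 436, 469 and 424 CPM, and the tagged strain 992, 803 and 995 CPM, against 424, 781 and 448 CPM in wild type (N). Its sre1- libraries had 592, 616 and 920.2 CPM, against 1118, 525 and 1072 CPM in wild type (Ne). Every double mutant library lay below all others of the 18, and the tagged strain overlapped sre1- and wild type (Ne).

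The lower genes g2682 and g2683 carry neighbouring numbers on contig 7. At g2682, the double mutant had 40.4, 45.5 and 43.8 CPM, cyp61- 132, 80.0 and 77.3 CPM, and the tagged strain 229, 175 and 127 CPM, against 107, 98.2 and 100.2 CPM in wild type (N). The double mutant was below all other libraries, those of sre1- (65.9, 78.7 and 86.2 CPM) and wild type (Ne) (61.4, 70.8 and 110.2 CPM) included. At g2683, the double mutant had 20.2, 18.4 and 22.9 CPM, cyp61- 51.4, 53.9 and 24.2 CPM, and the tagged strain 50.2, 38.4 and 24.0 CPM, against 54.1, 57.8 and 47.9 CPM in wild type (N).

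Library C of cyp61- and library C of the tagged strain thus stood next to the double mutant at g2683, apart from libraries A and B. In the other tables g2683 was low in both strains, at 22.1, 30.2 and 25.9 CPM in sre1-, against 23.3, 24.1 and 20.4 CPM in wild type (Ne), and both overlapped the double mutant. The numbers on either side did not pass the rule, with g2681 at 146, 120.2 and 134 CPM in the double mutant, against 149.9, 148 and 141 CPM in wild type (N). On the other side, g2684 had 39.4, 49.6 and 41.4 CPM in the double mutant, against 77.0, 71.1 and 67.7 CPM in wild type (N), which do not overlap, a difference of -0.72 in mean log2(CPM + 1).

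The remaining lower genes are g5580 and g4825. For g5580, the double mutant had 6.02, 7.16 and 2.76 CPM, cyp61- 14.2, 9.57 and 17.9 CPM, and the tagged strain 16.7, 15.4 and 29.1 CPM, against 11.9, 19.3 and 9.32 CPM in wild type (N). The sre1- libraries of g5580 had 7.94, 11.2 and 10.2 CPM, against 19.2, 12.6 and 5.37 CPM in wild type (Ne), where library C lay inside the double mutant's range.

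The gene with the fewest counts, g4825, had 6, 19 and 8 counts in the double mutant, 119, 65 and 16 in cyp61-, and 20, 17 and 9 in the tagged strain, against 46, 53 and 43 in wild type (N). As CPM these were 0.301, 1.05 and 0.480 in the double mutant, 6.71, 3.62 and 0.846 in cyp61-, and 2.15, 0.928 and 0.436 in the tagged strain, against 2.90, 3.14 and 2.40 in wild type (N). The mean of cyp61- near wild type (N), which placed g4825 among the 10, came from libraries A and B above wild type (N) and library C below it. In sre1- it had 0.730, 0.718 and 0.543 CPM, against 0.887, 1.19 and 1.37 CPM in wild type (Ne). It was the single gene of the 10 at which these groups did not overlap, beside 7.11% of all 6469 genes.

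Across the 18-library edgeR quasi-likelihood fit with Benjamini-Hochberg adjustment over 6228 genes, 4 of the 10 were called at an adjusted p under 0.05 in the double mutant against wild type (N), where 0.771% of all genes were called. These are the groups that chose the genes, so the counts describe them and support nothing. Called higher were 3 of 3 (0.225% of all genes were called higher): g5770 with a log2 fold change of 2.48 ± 0.20 (SE, adjusted p = 2.81e-06), g4170 with 1.15 ± 0.19 (adjusted p = 0.00851) and g5002 with 1.09 ± 0.22 (adjusted p = 0.0246). Of the 7 lower genes, 1 was called lower (0.546% of all genes), g2683 with -1.29 ± 0.29 (adjusted p = 0.0457).

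The 6 lower genes that edgeR did not call had log2 fold changes of -0.89 (g818), -1.16 (g854), -1.16 (g2682), -1.71 (g4669), -2.15 (g4825) and -1.29 (g5580), with adjusted p from 0.0625 to 0.416. DESeq2 called 8 of the 10 and 3.55% of all genes, and a fit of the double mutant and wild type (N) alone called 9 of the 10 and 4.56% of all genes. The call of g2683 was lost when any 1 library of either group was left out, that of g4170 without double mutant A (adjusted p = 0.0589, within 6.81e-06 to 0.0589 over all alternatives), and that of g5002 without double mutant A or C or wild type (N) A or C, while g5770 was called under each of these settings.

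In the single mutants, the rule itself chose genes with cyp61- near wild type (N) and sre1- not far below wild type (Ne). None of the 10 was called by edgeR between cyp61- and wild type (N), in a comparison with 32% of all genes called. An unadjusted p under 0.05 was found at 0 of 10, beside 2781 of the 6228 genes tested. In sre1- against wild type (Ne), edgeR likewise called none of the 10, beside 0.225% of all genes. Here 1 of 10, g5770, had an unadjusted p under 0.05, beside 306 of the 6228 genes tested. The libraries of sre1- and wild type (Ne) were also fitted alone with the replicate letters as a block, a setting added after the data were seen. In that fit edgeR called none of the 10 either, beside 0.325% of all genes. There 1 of 10, g4669, had an unadjusted p under 0.05, and the matching count over all genes was not taken. DESeq2 was not run on these comparisons.

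Against cyp61-, which carries the same CYP61 interruption, the double mutant was called at 7 of the 10, beside 22.8% of all genes. It was higher at all 3 higher genes (10.8% of all genes were called higher) and lower at 4 of the 7 lower genes (11.9%). The log2 fold changes were 1.33 at g4170, 0.92 at g5002 and 2.64 at g5770, and -0.95 at g2682, -0.87 at g2683, -2.44 at g4825 and -1.19 at g5580. The other lower genes, g818, g854 and g4669, were not called. Both groups were used by the rule. Without double mutant A 3 of the 10 were called, beside 16% of all genes, and without cyp61- A 3 of the 10, beside 10.2%.

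**Figure D3:**
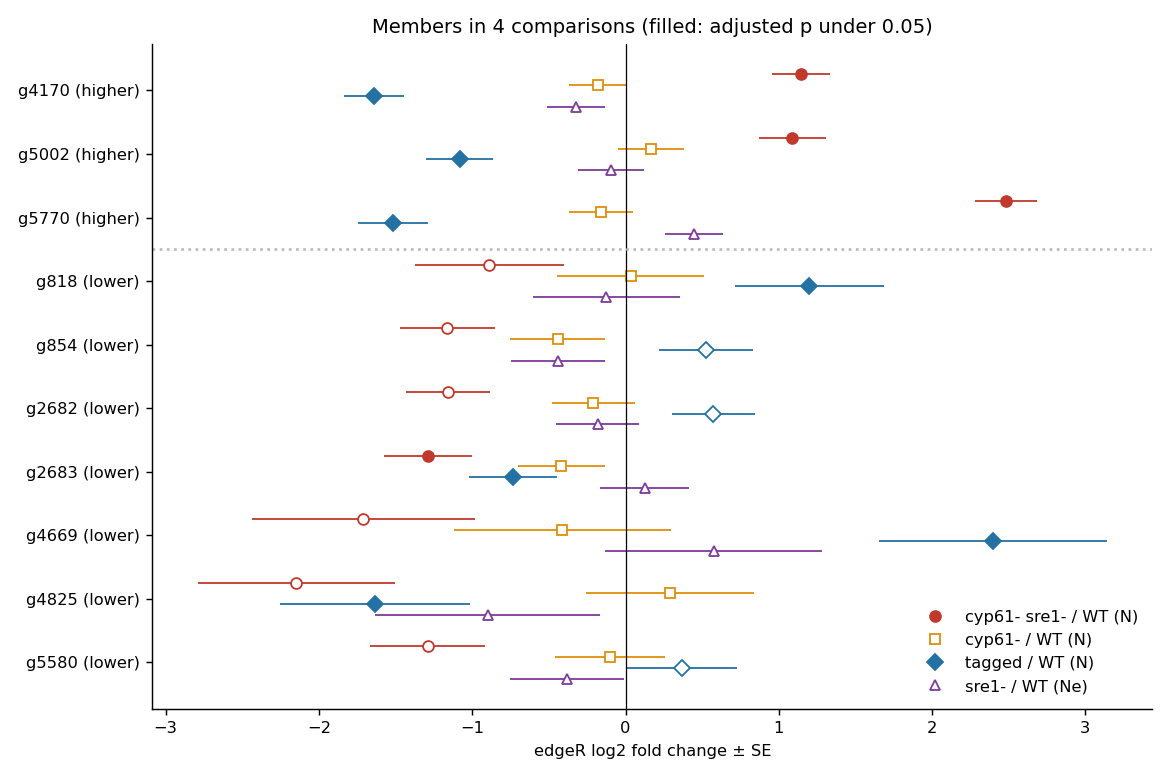
Log2 fold changes of the 10 genes with 1 SE from the edgeR fit of 18 libraries, of the double mutant (red circles), cyp61- (orange squares) and the tagged strain (blue diamonds) over wild type (N), and of sre1- over wild type (Ne) (purple triangles); filled markers are called at an adjusted p under 0.05. At g4170, g5002 and g5770 the double mutant lies right of 0 and the tagged strain left of it, from -1.64 to -1.08, both called.

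The tagged strain is the group that the rule did not use, although the wild type (N) and cyp61- libraries it was set against were used. Relative to wild type (N), all 3 higher genes fell in the tagged strain, by -1.64 ± 0.20 at g4170 (adjusted p = 7.22e-06), -1.08 ± 0.22 at g5002 (adjusted p = 0.000667) and -1.52 ± 0.23 at g5770 (adjusted p = 5.64e-05), as log2 fold changes with SE. In this comparison 54.3% of all genes were called, with 26.3% of all genes lower and 28% higher, so a call is close to the usual outcome here. The median log2 fold change was -1.52 over the 3 higher genes and 0.02 over all genes tested. These 3 calls held with DESeq2, with the replicate letters as a block and without any 1 library.

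Of the 7 lower genes, 2 rose in the tagged strain relative to wild type (N), g4669 by 2.40 ± 0.74 (adjusted p = 0.0121) and g818 by 1.20 ± 0.49 (adjusted p = 0.0463). Another 2 fell, g2683 by -0.73 ± 0.29 (adjusted p = 0.0385) and g4825 by -1.63 ± 0.62 (adjusted p = 0.0352). For the other 3 the log2 fold changes were 0.53 at g854, 0.57 at g2682 and 0.37 at g5580, and did not pass. The median over the 7 was 0.53, beside 0.02 over all genes.

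Several of these calls depend on single libraries. The call of g818 was lost with DESeq2 (adjusted p = 0.0572, within 0.000431 to 0.148 over all alternatives) and without any 1 library, those of g2683 and g4825 without any 1 library other than tagged strain A, and that of g4669 without wild type (N) A (adjusted p = 0.0502, within 4.12e-05 to 0.0502). Of all 10 genes, 7 were called with every library, 4 without tagged strain B (48.2% of all genes), 4 without wild type (N) C (45.3%), and 3 without wild type (N) A (47.9%).

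Set against cyp61-, the tagged strain was called at 7 of the 10 genes, beside 32.2% of all genes. It was lower at the 3 higher genes, by -1.46 at g4170 (adjusted p = 0.000108), -1.25 at g5002 (adjusted p = 0.00066) and -1.36 at g5770 (adjusted p = 0.000485), where 16.6% of all genes were called lower. Of the lower genes, g4669 (2.81), g854 (0.97) and g2682 (0.78) were called higher, in a comparison with 15.6% of all genes called higher, and g4825 was called lower (-1.92). Over 10 alternative fits, the calls of g854, g2682 and g4825 were each lost in 5, and that of g4669 in 1. In 3 of these fits g818 gained a call. The fold change of g818, 1.17, did not pass (adjusted p = 0.0758), and with the replicate letters as a block it was 1.25 and passed (adjusted p = 0.0350, within 0.0350 to 0.270 over all alternatives). Values for g2683 (-0.32) and g5580 (0.47) did not pass in either fit. Without cyp61- B, 3 of the 10 were called, beside 18.5% of all genes.

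Separation of the 3 libraries of one group from the 3 of another was also counted, in CPM and without a model. The double mutant and wild type (N) did not overlap at 10 of 10 genes, against 22.5% of all 6469 genes, which the choice of genes favours. The tagged strain and wild type (N) did not overlap at 8 of 10 genes, g2683 and g5580 being the exceptions, against 66.4% of all genes. The tagged strain and cyp61- were separate at 6 of 10 genes, against 50.0% of all genes. Neither of these shares is far from its background. On the unscaled log2(CPM + 1) scale the median difference of all 6469 genes, tagged strain minus wild type (N), was 0.20. The median edgeR log2 fold change, a different measure with TMM scaling over the 6228 genes tested, was 0.02.

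Wild type (Ne) was called different from wild type (N) at 5 of the 10 genes, beside 53.7% of all 6228 genes. In the edgeR fit, wild type (Ne) was called higher at 4 of the 10 (26.1% of all genes) and lower at 1 (27.6%). It was higher by 2.84 at g5770 (adjusted p = 2.8e-07), 0.79 at g4170 (adjusted p = 0.00237), 1.14 at g854 (adjusted p = 0.0055) and 2.75 at g4669 (adjusted p = 0.00567), and lower by -0.83 at g2683 (adjusted p = 0.0227). Table set, culture and sequencing cannot be told apart in this difference. Without scaling, the median difference of all genes in log2(CPM + 1), wild type (Ne) minus wild type (N), was -0.39. The median edgeR log2 fold change, a different measure with TMM scaling over the 6228 genes tested, was -0.02.

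When the rule took wild type (Ne) as the wild type of every strain, a setting added after the data were seen, 70 higher and 86 lower genes were chosen, and of the 10 only g5002, g818 and g5580 were among them. The differences of the double mutant from wild type (Ne) were 1.12 at g5002, -1.11 at g818 and -1.01 at g5580. Differences past 1 from wild type (Ne) were also found at g854 (-1.91) and g4669 (-3.55), which makes 5 of the 10, but with wild type (Ne) as the wild type these genes no longer met the criterion on cyp61-. The other 5 stayed under 1, at 0.71 for g4170, 0.01 for g5770, -0.84 for g2682, -0.14 for g2683 and -0.44 for g4825. These differences cross the sets of tables without TMM scaling, and the median over all genes was 0.35. The share of all genes past 1 from wild type (Ne) was not counted.

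The gene g4825 lies at the end of a run of lower genes on contig 4, whose highest gene number in the tables is 4832. The neighbours g4821 to g4824, described here because of their values, differed between the double mutant and wild type (N) by -6.95, -3.87, -2.83 and -5.61 in mean log2(CPM + 1), and missed the rule on both other criteria. Their mean differences were -1.82, -0.85, -0.58 and -2.69 for cyp61- minus wild type (N), and -0.93, -0.51, -0.58 and -0.92 for sre1- minus wild type (Ne). For g4821, the double mutant had 30.0, 27.2 and 27.8 CPM, cyp61- 6951, 3425 and 44.3 CPM, and the tagged strain 534, 834 and 60.8 CPM, against 2747, 3972 and 4307 CPM in wild type (N). At g4824, the double mutant had 158, 137 and 382 CPM, cyp61- 8202, 4745 and 92.0 CPM, and the tagged strain 1363, 1349 and 154 CPM, against 8163, 10307 and 11586 CPM in wild type (N).

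Library C of cyp61- was thus at the level of the double mutant across the run, while libraries A and B of cyp61- were near or above wild type (N) except at g4824, where library B lay below it. Library C of the tagged strain was low as well, and in sre1- library C was the lowest, with 1969, 1517 and 575 CPM at g4821 in sre1-, against 2207, 1612 and 3317 CPM in wild type (Ne). Without cyp61- C, g4825 was no longer chosen. On the other side, g4826 had 35.7, 37.4 and 35.9 CPM in the double mutant, against 48.2, 51.6 and 45.8 CPM in wild type (N), a difference of -0.41. The files hold no coordinates, so the distance between these genes is not given.

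**Figure D4:**
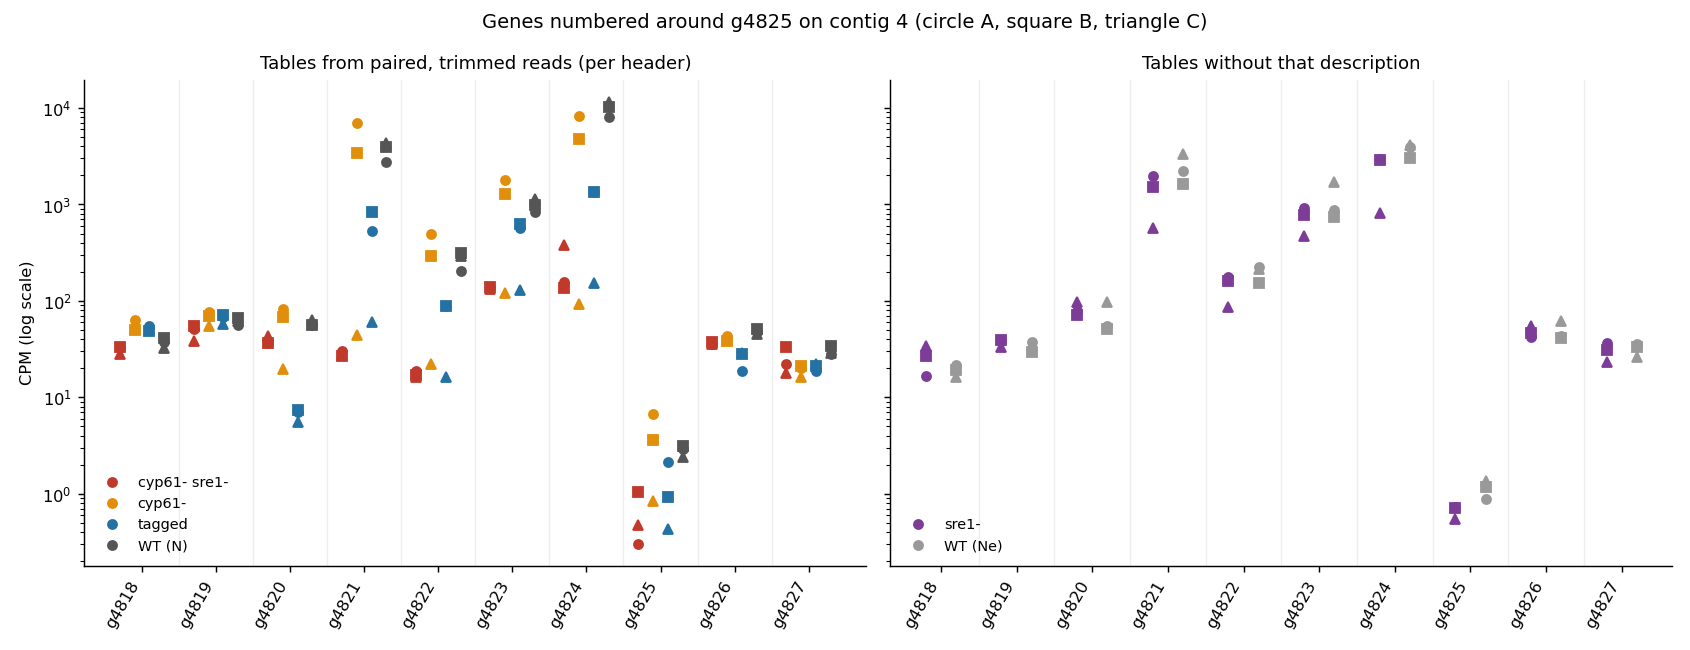
CPM on a log axis for g4818 to g4827 on contig 4, by library, in the double mutant, cyp61-, the tagged strain and wild type (N) (left) and in sre1- and wild type (Ne) (right). Between g4821 and g4825 the double mutant libraries run below wild type (N), and library C of cyp61- runs with them while its libraries A and B do not.

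Most neighbours of the 10 genes did not share the difference. Within 5 numbers on either side there were 100 neighbours, counting a gene again for each of the 10 it adjoins. Of these, 7 differed by at least 1 between the double mutant and wild type (N), beside 1.19% of all genes. These 7 were g2682 and g2683 beside each other, the 4 genes of the contig 4 run, and g5583, at -1.03, near g5580. The genes beside g4669, named after their values were seen, were high in the tagged strain too, with 927, 740.0 and 600.0 CPM at g4668 in the tagged strain, against 184, 170.4 and 164 CPM in wild type (N), and 162, 205 and 261 CPM at g4670 in the tagged strain, against 17.4, 27.7 and 23.7 CPM in wild type (N). In the double mutant g4668 was at 164, 170.4 and 162 CPM, overlapping wild type (N).

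To see the same measure in libraries that the choice did not use, the rule was applied to the libraries of 2 letters and the genes it chose were read in the third. With letter A held out, 10 lower genes were chosen, their median difference between the double mutant and wild type (N) was -1.27 in the letters that chose them and -0.69 in letter A, and 3 of the 10 passed 1 there, as did 1.93% of all genes. The 7 lower genes chosen without letter B had a median of -1.02 in B, and 4 of 7 passed 1, beside 0.974% of all genes. The 7 chosen without letter C had a median of -1.03 in C, and 4 of 7 passed 1, beside 1.25% of all genes. Of the lower genes chosen, 5 of 10 without letter A, 4 of 7 without B and 3 of 7 without C were among the 10 genes described here. Every lower gene so chosen was lower in the letter held out, for each of the 3 letters. The median of all genes was itself -0.11 in A, 0.05 in B and -0.14 in C. The share of all genes with the same sign was not counted.

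The higher genes were fewer and less even in this reading. Without letter A 1 gene was chosen, with a difference of 2.42 in A. Without letter B 4 were chosen, with a median of 1.28 in the letters that chose them and 0.51 in B, and 1 of 4 passed 1, beside 0.371% of all genes. Without letter C 6 were chosen, with a median of 0.77 in C, and 2 of 6 passed 1, beside 0.541% of all genes. Of these, 1 of 1, 2 of 4 and 3 of 6 were among the 10 genes. All of them were higher in the letter held out, and here too the share of all genes with that sign was not counted.

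**Figure D5:**
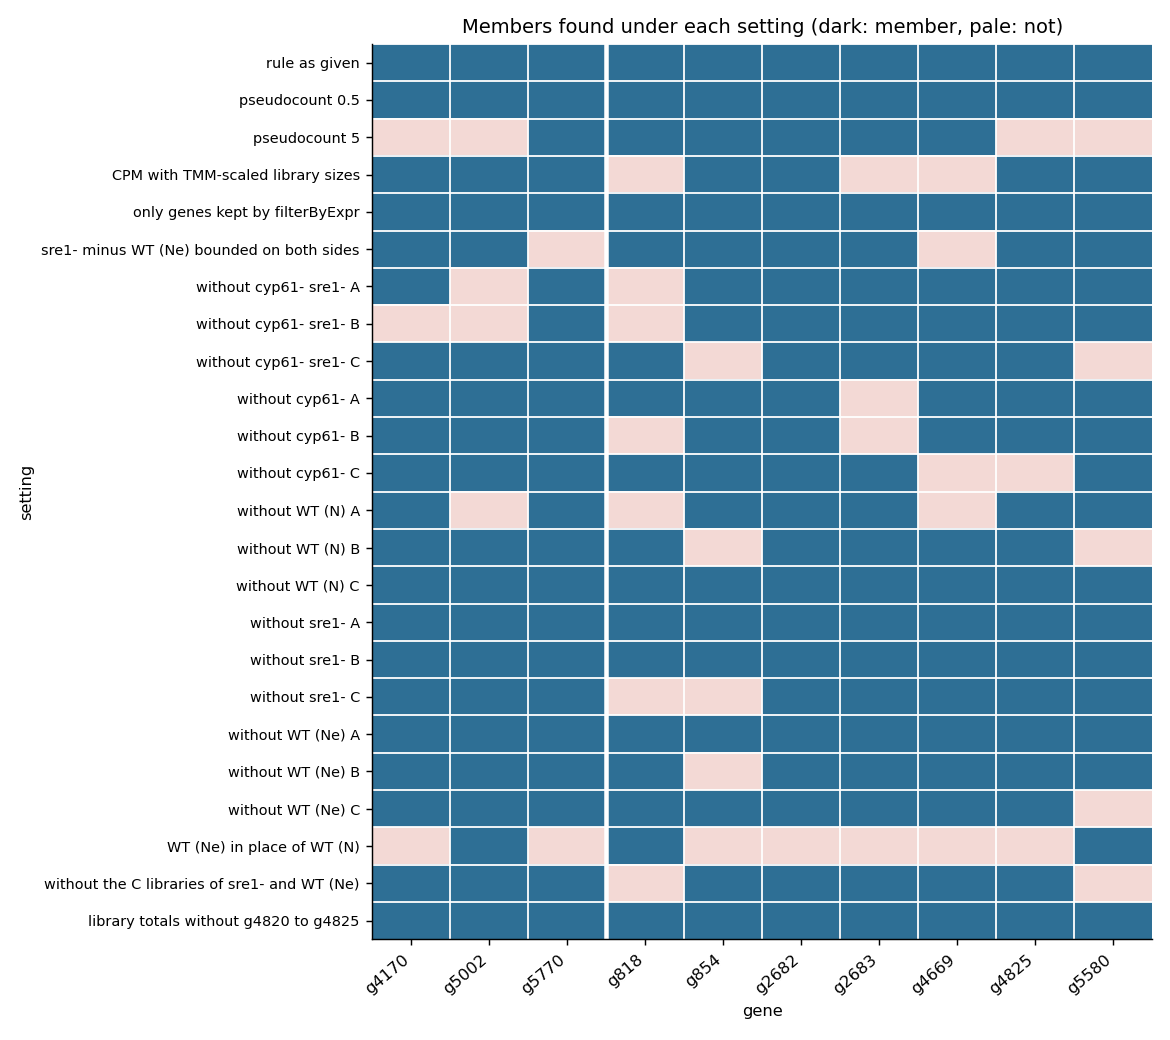
Whether each of the 10 genes was still chosen (dark cells, pale where it was not) when 1 of the 15 libraries used by the rule was left out or another setting was used. The genes g5770 and g2682 stayed chosen without any 1 library, and g818 was lost most often, in 5 of 15 cases.

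Leaving out each of the 15 libraries of the rule in turn gave 2 to 5 higher and 5 to 11 lower genes. The genes g5770 and g2682 were chosen all 15 times, g4170 and g4825 14 times, g2683 and g4669 13 times, g5002 and g5580 12 times, g854 11 times and g818 10 times. The number of lower genes was 11 without double mutant B, and the number of higher genes was 5 without double mutant C, wild type (N) B or wild type (N) C. The rule bounds sre1- on 1 side, and with a bound of 0.5 on both sides g5770 (0.53) and g4669 (0.61), both higher in sre1- than in wild type (Ne) by the values in parentheses, would not have been chosen.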

How the data were processed

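RNA-seq was compared in 18 libraries (6 groups of 3). The authors deposited total counts per gene, not normalized, per the file headers, in tables of 6469 genes whose 22 contigs bear the assembly name QXden1.PacBioOnly. The counting tool, gene models and strand setting were not given in the sources used here. Reads from genes that overlap, run antisense or are near copies could therefore be mixed. The submitters' processing notes list Bowtie2 2.3.5.1, edgeR and DESeq2 among other tools, and give none of them a role. The ChIP-exo files of the series were not used here, and no genome or gene names were used.

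CPM was computed from each library's total, and the rule was applied to log2(CPM + 1). Counts were tested in R 4.3.3 with edgeR 4.0.16 and limma 3.58.1. The filterByExpr filter left 6228 genes, TMM scaled the libraries (factors 0.717 to 1.27), and 1 quasi-likelihood fit with group as its term gave each contrast, with Benjamini-Hochberg adjustment over all genes tested. Each SE was derived from the F statistic of its fold change. The steps were tested on simulated data. DESeq2 1.42.0, other filters, pseudocounts and scalings, a replicate block and leaving out each library were the alternatives.

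The 10 genes, the settings and the tests were chosen with earlier results of these data known. All 10 are named because they are the subject, beside the genes nearest to each threshold; other genes were named after their values were seen. Without gene names, the sterol, mevalonate and carotenoid gene lists were not run. No pair of replicates was within sampling noise (mean chi-square per gene 17.0 to 319), so none was counted as a repeat. P-values of the main fit rest on a spread between libraries that was estimated over all 6 groups together. The design text calls the 3 libraries of a group biological replicates. Pairing by letter was checked by the correlation of same-lettered libraries' deviations from their group means. It was 0.32, 0.43 and 0.36 for letters A, B and C between the tagged strain and cyp61-, and 0.42, 0.57 and 0.67 between sre1- and wild type (Ne), so blocked fits are given for both.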

Additional observations from a re-analysis of the deposited data

Results flagged for a closer look

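At g4170 the libraries with the SRE1 deletion lay above a group mean in the cyp61- background and below one in the wild-type background. Each double mutant library lay above the mean of cyp61-, by 1.14 in mean log2(CPM + 1), and each sre1- library lay below the mean of wild type (Ne), by -0.22. The sre1- and wild type (Ne) libraries overlapped, and library B of sre1- (57.4 CPM) lay above libraries A and C of wild type (Ne) (52.2 and 52.4 CPM). Library B of wild type (Ne) alone (81.0 CPM) raised the mean of wild type (Ne). The edgeR fit did not call the difference (log2 fold change -0.33, adjusted p = 0.969). The difference between the backgrounds was not tested, it crosses the sets of tables, and the rule that chose the gene used all 4 groups.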

How the results depend on the processing

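The choice of genes moved with the scaling and the pseudocount. The main rule gave 3 higher and 7 lower genes. Library sizes scaled by TMM gave 5 and 4, without g818, g2683 and g4669. A pseudocount of 5 in place of 1 gave 2 and 6, of which 1 and 5 were among the 10. The genes g4170, g5002, g4825 and g5580 were not chosen with that pseudocount. Taking wild type (Ne) as the wild type of every strain, added after the data were seen, gave 70 and 86. The other settings added then, leaving out the C libraries of sre1- and wild type (Ne) and taking library totals without g4820 to g4825, gave 3 and 5, and 3 and 7. Leaving out 1 library gave 2 to 5 higher and 5 to 11 lower genes. Over both directions, the median difference in the chosen direction, for genes chosen from 2 letters, was 0.71 to 0.94 in the letter held out, against 1.22 for the 10 genes in all libraries, which are in part other genes. In the double mutant against wild type (N), 4 of the 10 genes were called (0.771% of all genes), 8 by DESeq2 (3.55%), 9 in a fit of these groups alone (4.56%), 3 with the replicate block (0.739%), and 1 to 3 without 1 library (0.0802% to 1.7%). The double mutant against cyp61- gave 7, and 6 with the replicate block (24% of all genes); the tagged strain gave 7 and 7 (54.5%) against wild type (N), and 7 and 8 (33.1%) against cyp61-. Leaving out 1 library gave 3 to 6 in each of these comparisons, beside 8.42% to 23.2%, 45.3% to 48.4% and 18.5% to 29.2% of all genes. For sre1- against wild type (Ne), 0 of the 10 were called by edgeR, with or without the replicate block. Among 400 alternative fits of a gene, 62 lost a call and 17 gained one, and no fold change of the 10 genes changed sign. These fits share most of their libraries. The rule largely set the direction of the double mutant against wild type (N) and cyp61-, so the unchanged signs there support nothing. The causes were not tested.

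The correlation by letter was uneven between the double mutant and wild type (N) (-0.06, 0.21 and 0.33 for A, B and C). It was -0.18, 0.10 and -0.08 between the double mutant and cyp61-, and -0.13, -0.10 and -0.21 between the tagged strain and wild type (N). No cut-off for pairing is given here. The block in edgeR took the call of g2683 in the double mutant against wild type (N) (adjusted p = 0.0519, within 0.00182 to 0.264 over all alternatives). It also took that call against cyp61- (adjusted p = 0.0512, within 0.00956 to 0.144). Depth limits g4825, which had 6 to 119 counts in these 12 libraries of trimmed reads.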
